A study of Homo sapiens with 4 samples.

Results

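Integrins are the receptors by which epithelial cells hold on to the matrix beneath them, and 10 integrin subunit genes known in such cells were followed here through 4 arrays of A549, an established human lung adenocarcinoma line. The genes were taken by symbol from the platform annotation, 5 encoding alpha chains (ITGA2, ITGA3, ITGA5, ITGA6 and ITGAV) and 5 encoding beta chains (ITGB1, ITGB3, ITGB4, ITGB5 and ITGB6), of 17687 genes with a named probe set. Each of the 10 had a single probe set, so no choice between probe sets had to be made. All 4 samples carried a short hairpin RNA against LDOC1. In 2 of them the mutant histone H2BK120R was also expressed, in which arginine takes the place of the lysine of H2B that receives monoubiquitin, and the other 2 carried the empty vector. According to the submitters, LDOC1 depletion raised monoubiquitylated H2B and the mutant lowered it, and the comparison asks which transcripts differ between such cells. The arrays hold no measure of the mark. The cell line was grown in puromycin, and the labels name neither separate clones nor separate cultures for the replicates, so p-values measure only how far these arrays spread, and that spread may be technical. Cells with intact LDOC1 and cells with an unmutated H2B construct were not analysed here.

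An integrin is a dimer of 1 alpha and 1 beta chain, and the pair decides the ligand. The beta-1 chain joins many alpha chains to form receptors for collagen, laminin and fibronectin, the alpha-V chain joins several beta chains to bind RGD-bearing ligands such as vitronectin and latent TGF-beta, and beta-4 joins only alpha-6, in the laminin receptor of hemidesmosomes. Talins and kindlins bind the beta tails from inside and switch the receptor on, and focal adhesion kinase and Src signal from the bound receptor.

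The levels are log2 values, 1 per probe set and array, and array medians lay between 6.40 and 6.43. A level also depends on the probes, so levels are compared between arrays and not between genes. LDOC1 was at 8.37 and 8.66 in H2BK120R replicates 1 and 2 and at 8.0 and 8.33 in vector replicates 1 and 2; since all samples carry the hairpin, this does not measure the depletion. Of the 5 epithelial markers, mean levels with H2BK120R and vector were 17.17 and 17.13 for KRT8, 15.14 and 14.94 for KRT18, 11.22 and 10.62 for CDH1, 6.45 and 6.93 for KRT19 and 5.45 and 5.71 for EPCAM. The groups did not overlap for KRT18, CDH1 and KRT19, which is 60.0% of the 5, against 36.5% of all probe sets. CDH1 had the smallest p among all listed genes, with a difference of 0.60 ± 0.15 (SE, limma adjusted p = 0.650). It was the 1 marker of the 5 with an unadjusted limma p under 0.05, where 6.70% of all probe sets were below that p. The averaged log2 level of the marker lists for leukocytes (6 of 7 measured), fibroblasts (4 of 5), endothelium (5 of 5) and platelets (4 of 4) was between 3.57 and 5.30 on every array. An average does not describe each marker. The leukocyte marker CD68 had means of 7.93 and 7.85 with H2BK120R and vector, and the fibroblast marker COL1A2 of 8.34 and 8.18. Both lay above the median level over all probe sets, 6.41, and the other markers of these lists lay below it.

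None of the integrin subunits was called as changed by H2BK120R, and the differences were small. In limma's test over all 21448 probe sets, 0 of the 10 passed a Benjamini-Hochberg adjusted p of 0.05, where 0% of all probe sets passed, and their adjusted p-values ran from 0.767 upwards. At an unadjusted p under 0.05 the count was also 0 of 10, against 6.70% of all probe sets (3.62% higher and 3.08% lower with the mutant). Of the 10 genes 5 were higher with H2BK120R and 5 lower, where 50.2% and 49.7% of all probe sets were, with differences from -0.42 (ITGB3) to 0.45 (ITGB6) and a median of 0.04, where the median over all probe sets was 0. The 95% interval included 0 for each of the 10 genes. For the 8 genes brighter than the median probe set, no interval reached beyond 0.60 on the log2 scale in either direction, a 1.51-fold change. Larger changes of these 8 lie outside the intervals, and smaller ones cannot be told from the replicate spread with 2 arrays a group.

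The arrays of the 2 groups nevertheless separated for most of these genes, and whether this share differs from the background was not tested. For 7 of the 10 genes the values of the 2 groups did not overlap, that is, the lower array of one group exceeded the higher array of the other, against 36.5% of all probe sets. The share was between 33.2% and 48.1% among the probe sets within 0.5 log2 units of each gene's own level. With H2BK120R, 4 of the 7 were higher (ITGA2, ITGA6, ITGB1 and ITGB6, background 18.6%) and 3 were lower (ITGA3, ITGAV and ITGB3, background 17.9%). The gaps between the groups were narrow, from 0.02 for ITGAV to 0.38 for ITGB6. After quantile normalization 5 of the 10 remained separate, with ITGA6 and ITGB1 overlapping. The smallest two-sided p that an exact permutation of these arrays allows for a gene is 0.333.

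**Figure D1:**
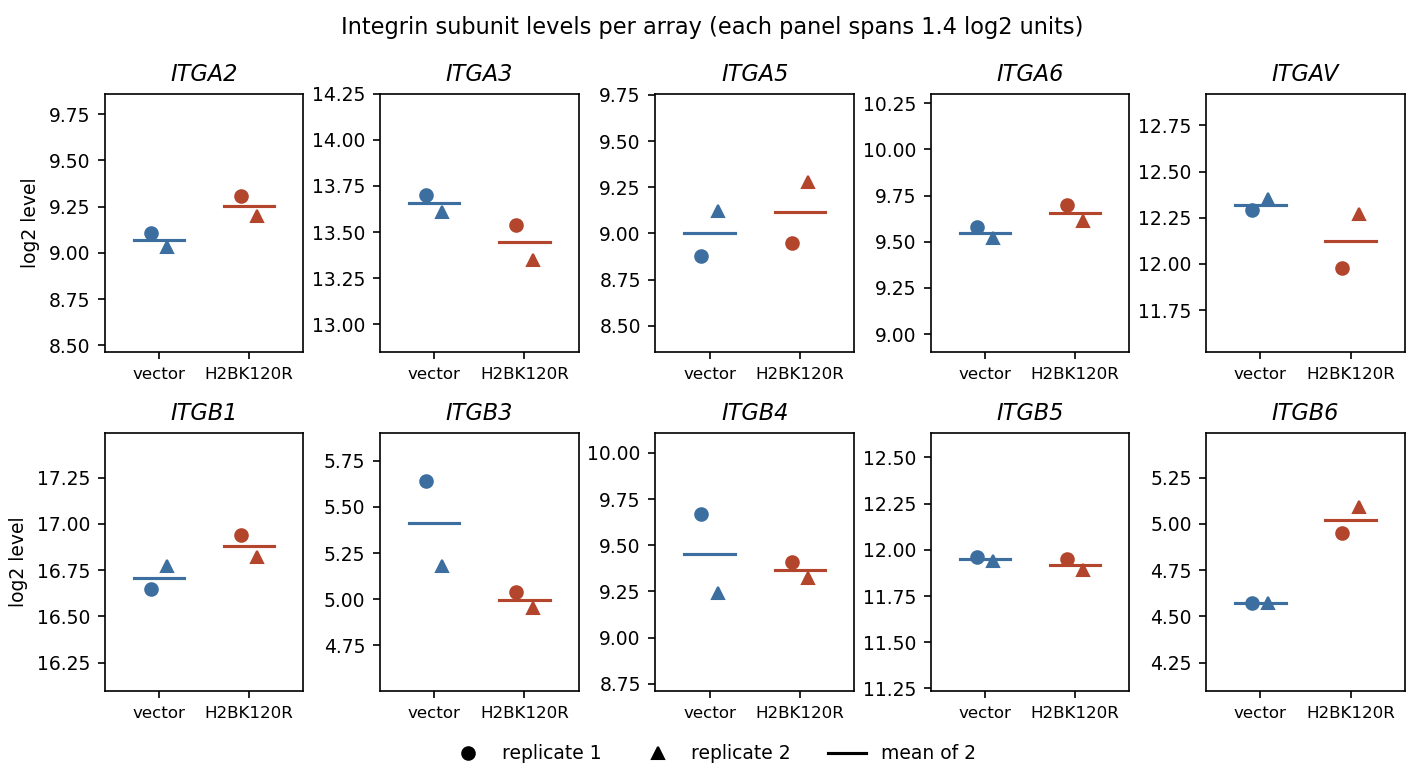
Log2 level of the 10 integrin subunit genes on each array, 1 panel per gene, with circles for replicate 1, triangles for replicate 2 and a line at the mean of the 2 arrays of a group. All panels span the same number of log2 units, so distances can be compared but heights cannot. The groups do not overlap for 7 of the 10 genes, and the clearest gap is that of ITGB6.

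Gene starts are shown for the member with the largest difference (ITGB6), its alpha partner (ITGAV) and the member with the smallest p in the fit as designed (ITGB1), since they differ widely in base composition. Shown for each are the 250 bases before the outermost start in the RefSeq table for GRCh38.p14, on the gene's strand, for ITGB6 chr2:160200273-160200522 (minus), for ITGB1 chr10:32958231-32958480 (minus) and for ITGAV chr2:186589806-186590055 (plus). Capitals mark 4 motifs searched on both strands, which were the GC box with the letters GGGCGG, the site of AP-1 with TGAGTCA, the TATA box with TATAAA and the box of NF-Y with CCAAT.
ITGB6: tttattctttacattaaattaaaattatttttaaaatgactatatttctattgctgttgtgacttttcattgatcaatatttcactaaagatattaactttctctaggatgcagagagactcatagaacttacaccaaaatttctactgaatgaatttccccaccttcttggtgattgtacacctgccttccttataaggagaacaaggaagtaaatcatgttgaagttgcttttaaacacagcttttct
ITGB1: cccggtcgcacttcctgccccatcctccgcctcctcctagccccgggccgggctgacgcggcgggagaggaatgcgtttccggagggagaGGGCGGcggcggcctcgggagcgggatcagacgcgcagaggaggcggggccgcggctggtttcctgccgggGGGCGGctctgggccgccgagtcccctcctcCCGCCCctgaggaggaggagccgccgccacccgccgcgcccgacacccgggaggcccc
ITGAV: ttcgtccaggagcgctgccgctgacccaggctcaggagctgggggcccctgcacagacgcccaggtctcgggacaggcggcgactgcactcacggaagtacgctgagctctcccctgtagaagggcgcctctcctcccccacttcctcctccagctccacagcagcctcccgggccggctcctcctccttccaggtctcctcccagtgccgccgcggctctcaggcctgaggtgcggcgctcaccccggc
The ITGB6 window held 0 CpG dinucleotides and a G+C content of 30.0%, the ITGB1 window 32 CpG and 78.4%, and the ITGAV window 18 CpG and 70.8%. Over 35116 such windows the median was 11 CpG and 58.0%. ITGB1 had 3 GC boxes, none overlapping another, and no other match, and ITGB6 and ITGAV had no match at all. Of all windows, 42.6% held a GC box, 4.20% the AP-1 site, 10.7% the TATA box and 32.0% the NF-Y box. In the outermost windows of the other members found in the table, ITGA2 had 26 CpG and 4 GC boxes, ITGA5 12 CpG and 1 GC box, ITGB5 9 CpG and 2 GC boxes, and ITGA6 8 CpG and 1 TATA box. ITGA6, ITGB5, ITGB1 and ITGAV also had starts further inside the gene, and the windows before those differed from the outermost ones. The inner ITGA6 window held 30 CpG, 3 GC boxes and no TATA box. The inner ITGB5 windows held 19 CpG with no match and 23 CpG with 3 GC boxes. The inner ITGB1 window held 4 CpG and 3 matches of the TATA box, and that of ITGAV 1 CpG and no match. In all 7 of the 10 members were matched. The arrays did not measure histone marks or factor binding at these starts, and a match of letters is a description only.

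ITGB1, the beta chain shared by the collagen, fibronectin and many laminin receptors, had the smallest p of the 10 in the fit as designed. It was measured at 16.94 and 16.82 in the arrays with H2BK120R and at 16.65 and 16.77 in the vector arrays. Both arrays with the mutant were above both vector arrays, by a gap of 0.05 that was smaller than the 0.12 between the replicates of either group. The means were 16.88 ± 0.08 and 16.71 ± 0.08 (SD, n = 2 each), a difference of 0.17 ± 0.09 (SE), or 12.5% higher, with a 95% interval from -0.04 to 0.38 (limma, unadjusted p = 0.0988, adjusted p = 0.767). Leaving out vector replicate 2 gave 0.23. Leaving out vector replicate 1 gave 0.11. Quantile normalization gave 0.09, with an unadjusted limma p of 0.301, above the 0.0651 of ITGA3, and without the variance trend the p of ITGB1 was 0.409 and that of ITGB6 0.0556.

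The alpha chains that pair with beta-1 did not follow it in one direction. ITGA3, the alpha chain of a laminin receptor of epithelial cells, was at 13.54 and 13.35 with H2BK120R and at 13.70 and 13.61 with the vector. Both mutant arrays were below both vector arrays. Its means were 13.45 ± 0.13 and 13.66 ± 0.06 (SD, n = 2 each), and the difference of -0.21 ± 0.12 (SE), or -13.5%, had an interval from -0.48 to 0.06 (limma adjusted p = 0.770). It stayed negative when any array was left out, between -0.31 and -0.12.

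ITGA2, the alpha chain of a collagen receptor, was at 9.31 and 9.20 with the mutant and at 9.11 and 9.03 with the vector. The groups were 0.09 apart, and the replicates of a group were 0.11 and 0.08 apart. The difference of 0.19 ± 0.19 (SE) had an interval from -0.23 to 0.60 (limma adjusted p = 0.866). ITGA6, a laminin-binding chain that joins either beta-1 or beta-4, was at 9.70 and 9.61 against 9.58 and 9.52. The mutant arrays were higher by a gap of 0.03, and the difference was 0.11 ± 0.18 (SE), from -0.28 to 0.49 (limma adjusted p = 0.925).

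ITGA5, the alpha chain of the classical fibronectin receptor, showed the widest spread between the arrays with the mutant. It was at 8.95 and 9.28 with H2BK120R and at 8.88 and 9.12 with the vector. Replicate 2 was the higher array in each group, and the groups overlapped. The difference was 0.12 ± 0.21 (SE; limma adjusted p = 0.933), and it went to -0.05 without H2BK120R replicate 2 and to -0.01 without vector replicate 1. FN1, which encodes the ligand fibronectin, had means of 5.49 and 5.47 with mutant and vector, a difference of 0.03 ± 0.35 (SE).

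In the laminin receptor of hemidesmosomes, alpha-6 with beta-4, neither chain passed the test, and the arrays overlapped for the beta chain. ITGB4, whose long cytoplasmic tail links to keratin filaments through plectin, was at 9.41 and 9.32 with H2BK120R and at 9.67 and 9.24 with the vector. The vector arrays enclosed both mutant arrays, and the 0.43 between them was the second widest replicate gap among the members after ITGB3. Its difference of -0.09 ± 0.20 (SE; limma adjusted p = 0.943) turned to 0.13 without vector replicate 1 and was -0.31 without vector replicate 2.

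**Figure D2:**
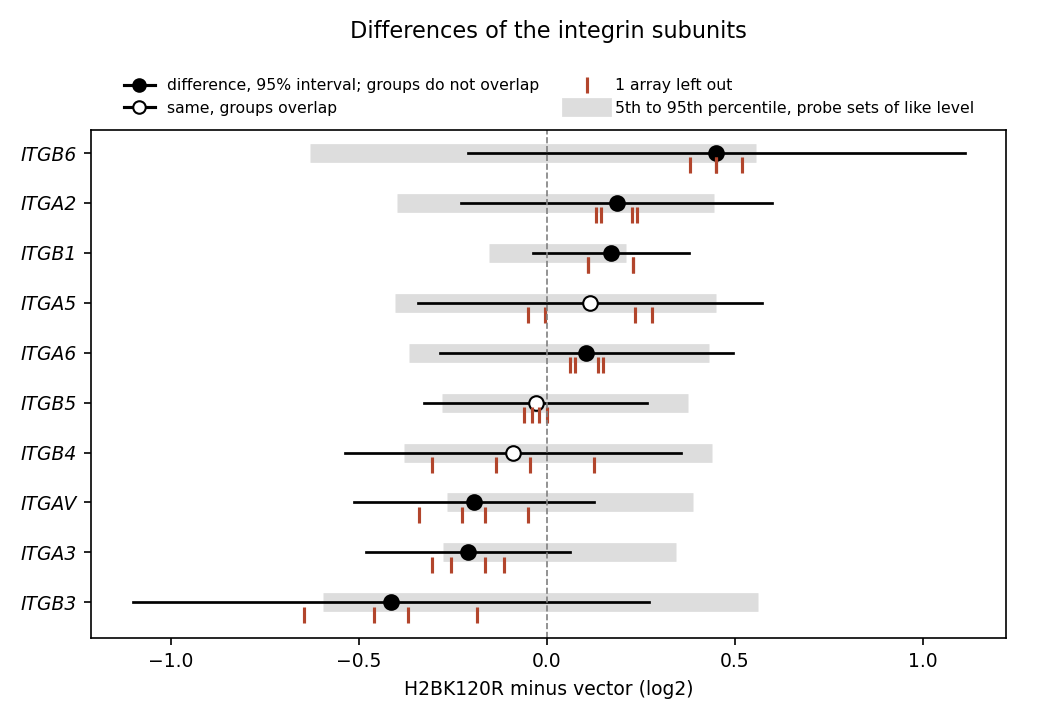
Difference between H2BK120R and vector (log2, horizontal axis) for the 10 genes, with its 95% interval from limma, the values when 1 array is left out (ticks) and the 5th to 95th percentile of the differences of probe sets within 0.5 log2 units of the gene's level (grey). All 10 intervals include 0 and all 10 differences lie within the grey range, with ITGB1, ITGB6, ITGAV, ITGA3 and ITGB3 towards its ends.

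Within the receptors of alpha-V with beta-3, beta-5 or beta-6, the difference was below 0 for alpha-V, beta-3 and beta-5, and above 0 for beta-6. ITGAV was at 11.98 and 12.27 with H2BK120R and at 12.29 and 12.35 with the vector. Replicate 1 with the mutant stood apart from the other 3 arrays, and replicate 2 was only 0.02 below the nearest vector array. The difference was -0.20 ± 0.14 (SE), or -12.6%, with an interval from -0.51 to 0.12 (limma adjusted p = 0.817). Without the array that stood apart it was -0.05, and without H2BK120R replicate 2 it was -0.34.

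ITGB6 encodes the partner of alpha-V that is made almost only in epithelia and that releases active TGF-beta from its latent complex. It was at 4.95 and 5.09 with the mutant and at 4.57 on both vector arrays. This was the widest separation among the members, a gap of 0.38 against 0.14 between the mutant replicates. The means were 5.02 ± 0.10 and 4.57 ± 0.00 (SD, n = 2 each), and the difference was 0.45 ± 0.30 (SE), or 36.6% higher, with an interval from -0.21 to 1.11 (limma, unadjusted p = 0.162, adjusted p = 0.795). The standard error is larger than these 4 values alone would give, because limma weights in the spread of other probe sets at this level. Leaving out 1 array kept the difference between 0.38 and 0.52. The probe set lies below the median level of 6.41, and no detection calls were used here. Whether the value reflects ITGB6 transcript or background was not tested.

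ITGB3, the beta chain of the vitronectin receptor and, with ITGA2B, of the platelet fibrinogen receptor, was the other member below that median. It was at 5.04 and 4.95 with H2BK120R and at 5.64 and 5.18 with the vector. The mutant arrays were lower by a gap of 0.14, and the vector arrays were 0.46 apart. The difference of -0.42 ± 0.31 (SE), or -25%, had an interval from -1.10 to 0.27 (limma adjusted p = 0.818). It was -0.65 without vector replicate 2 and -0.19 without vector replicate 1. ITGA2B itself had means of 6.11 and 6.18 with mutant and vector.

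ITGB5, the broadly expressed vitronectin-binding beta chain, was the most even of the members. It was at 11.95 and 11.89 with the mutant and at 11.96 and 11.94 with the vector, so that all 4 arrays lay within 0.07 of each other. The difference was -0.03 ± 0.13 (SE; limma adjusted p = 0.9746) and the interval ran from -0.33 to 0.27, a fold change between 0.797 and 1.203. The values of alpha-V and of 3 of its beta partners stand side by side here, and differences between subunits were not tested. ITGB8, a further beta chain that is not among the members, had means of 4.81 and 5.32 with mutant and vector. Its difference was -0.51 ± 0.36 (SE), and its groups overlapped.

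**Figure D3:**
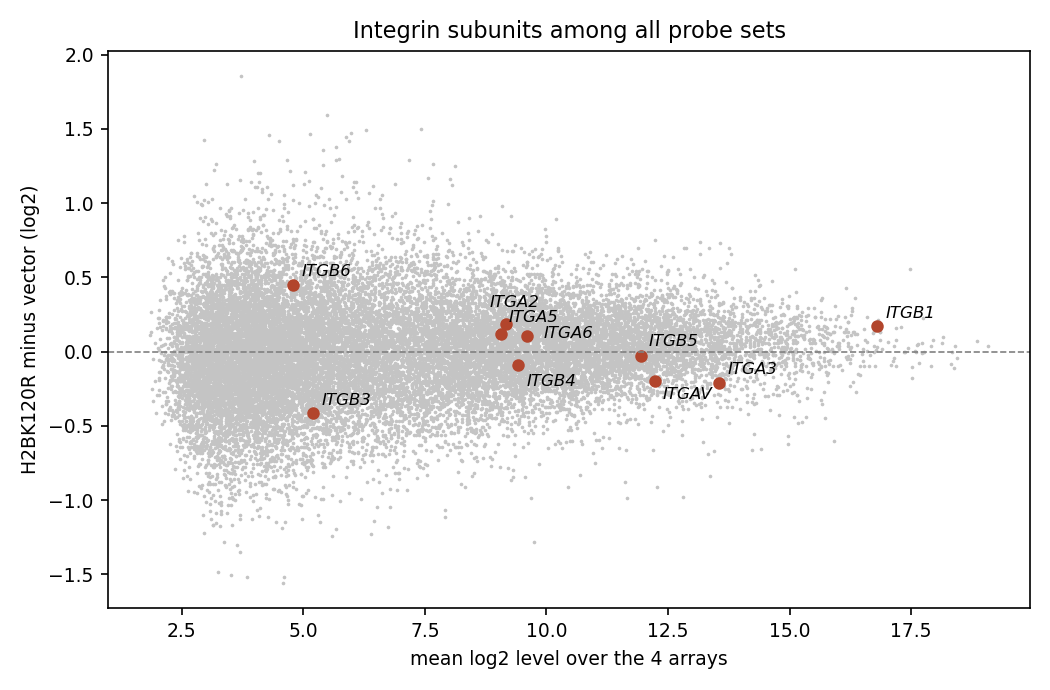
Difference between H2BK120R and vector (log2, vertical axis) against the mean log2 level over the 4 arrays for all 21448 probe sets (grey) and the 10 integrin genes (red). The grey cloud narrows as the level rises; ITGB3 and ITGB6 lie in its wide part, and ITGB1 in its narrow end.

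The remaining integrin subunits, which serve mostly leukocytes, muscle and mesenchyme, gave no call at an adjusted p of 0.05, and 15 of 16 genes were measured. The median difference was -0.04, with 6 genes higher and 9 lower in the cells with H2BK120R. At an unadjusted p under 0.05 there was 1 lower (background 3.08%) and 0 higher (3.62%), and 4 of 15 (26.7%) had groups that did not overlap, against 36.5% of all probe sets. The gene below that p was ITGAE, the alpha chain that with beta-7 holds lymphocytes to E-cadherin on epithelial cells. ITGAE was at 8.10 and 8.01 with the mutant and at 8.66 and 8.71 with the vector, a gap of 0.56 against at most 0.09 between replicates. Its difference of -0.63 ± 0.21 (SE), or -35.4%, was the largest among these subunits, with an unadjusted p of 0.0115 and an adjusted p of 0.693 in limma. It lay between -0.68 and -0.59 with 1 array left out, and the unadjusted p was 0.0685 without H2BK120R replicate 2. ITGA7, a laminin receptor chain of muscle, differed by -0.52 ± 0.33 and ITGB2, the leukocyte beta chain, by 0.46 ± 0.29 (SE). Of the 15 subunits 13 lay below the median level of 6.41, ITGA7 and ITGB2 among them. Whether such values reflect transcript or background was not tested.

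The matrix ligands of these receptors showed no call. Of 25 listed genes 21 were measured, 10 higher and 11 lower with H2BK120R, with a median of -0.03. At an unadjusted p under 0.05 in limma there were 0, against 6.70% of all probe sets. The 3 with the smallest p were basement membrane genes, each lower in both mutant arrays than in both vector arrays. COL4A1, a collagen IV chain, differed by -0.42 ± 0.21 (limma adjusted p = 0.746), LAMA4 by -0.39 ± 0.27 and LAMC1 by -0.18 ± 0.13 (SE). COL4A1 was at -0.60 without vector replicate 1 and at -0.24 without vector replicate 2. COL4A2, whose chain is assembled with that of COL4A1, differed by 0.08 ± 0.15, and its groups overlapped. Transcripts for latent TGF-beta, the ligand of alpha-V with beta-6, overlapped between the groups, with TGFB1 at -0.27 ± 0.21, TGFB3 at 0.33 ± 0.33 and LTBP1 at 0.08 ± 0.22 (SE).

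Of the proteins that switch integrins on or off from inside the cell, 10 of 14 were measured, 5 higher and 5 lower with a median of -0.07, and 1 had an unadjusted p under 0.05, against 6.70% of all probe sets. That gene was FERMT1, which encodes kindlin-1, the kindlin of epithelial cells that binds the beta-1 tail and activates it. FERMT1 was at 12.71 and 12.94 with H2BK120R and at 12.47 and 12.32 with the vector. The mutant arrays were higher by a gap of 0.24, about as wide as the 0.23 between them. The difference was 0.43 ± 0.14 (SE), or 34.7% higher, with an unadjusted p of 0.00999 and an adjusted p of 0.693 in limma. It was 0.32 without H2BK120R replicate 2 (unadjusted limma p of 0.132) and 0.36 without vector replicate 2 (p of 0.0618), and the p was 0.0773 without the variance trend. FERMT2, which encodes the more widely made kindlin-2, differed by -0.21 ± 0.18, and SHARPIN, an inhibitor that binds alpha tails, by -0.46 ± 0.22 (SE; limma adjusted p = 0.745). TLN2, a talin, differed by 0.48 ± 0.31, at a level below the median of 6.41.

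Focal adhesion genes gave 14 higher and 8 lower of 22 measured from a list of 24, with a median of 0.05. In limma 0 of the 22 had an unadjusted p under 0.05, against 6.70% of all probe sets. Without vector replicate 2 the count was 4 of 22, where 11.3% of all probe sets were below that p. PTK2, which encodes focal adhesion kinase, was at 10.49 and 10.45 with H2BK120R and at 9.81 and 10.35 with the vector. Vector replicate 1 stood apart from the other 3 arrays. The difference of 0.39 ± 0.20 (SE; limma adjusted p = 0.760) was 0.12 without that array and 0.66 without vector replicate 2. TNS4, a tensin, was likewise low on vector replicate 1 alone, with 0.42 ± 0.24 over all arrays and -0.04 without it. SRC differed by 0.17 ± 0.11 (SE) and its groups did not overlap.

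Among 11 measured genes for hemidesmosomes, tetraspanins and other lateral partners of integrins, 3 were higher, 8 were lower and the median was -0.04, and 2 had an unadjusted p under 0.05, both higher (background 3.62%). CD9, a tetraspanin that associates with beta-1 integrins, was at 11.91 and 12.29 with the mutant and at 11.63 and 11.67 with the vector. DST, whose epithelial isoform is the hemidesmosomal plakin BPAG1e and which has neuronal and muscle isoforms as well, was at 12.28 and 12.32 against 11.92 and 11.95. The mutant arrays were higher in both cases, DST with replicates within 0.04 of each other in each group. The differences were 0.45 ± 0.16 for CD9 and 0.37 ± 0.13 for DST (SE), each with an adjusted p of 0.722 in limma. Without H2BK120R replicate 2, CD9 was at 0.26 and DST at 0.35. Without the variance trend 0 of the 11 had an unadjusted limma p under 0.05, where 5.93% of all probe sets did. With the replicate block the count was 3, where 8.61% of all probe sets were below that p. PLEC, CD151 and CD63 differed by -0.01 ± 0.15, -0.07 ± 0.15 and -0.04 ± 0.13. TSPAN4 gave 0.47 ± 0.26 over all arrays and -0.04 without vector replicate 2, where it was lowest. Genes for integrin traffic were 6 higher and 5 lower of 11 measured, with a median of 0.02. At an unadjusted p under 0.05 in limma there were 0, against 6.70% of all probe sets. The count was 1 after equal medians, without the variance trend or with the replicate block. At these 3 settings 6.55%, 5.93% and 8.61% of all probe sets were below that p. The 3 traffic genes with the smallest p were SNX31 (-0.68 ± 0.31), RAB25 (0.32 ± 0.41) and SNX17 (-0.12 ± 0.17). SNX31 and RAB25 lay below the median level of 6.41.

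**Figure D4:**
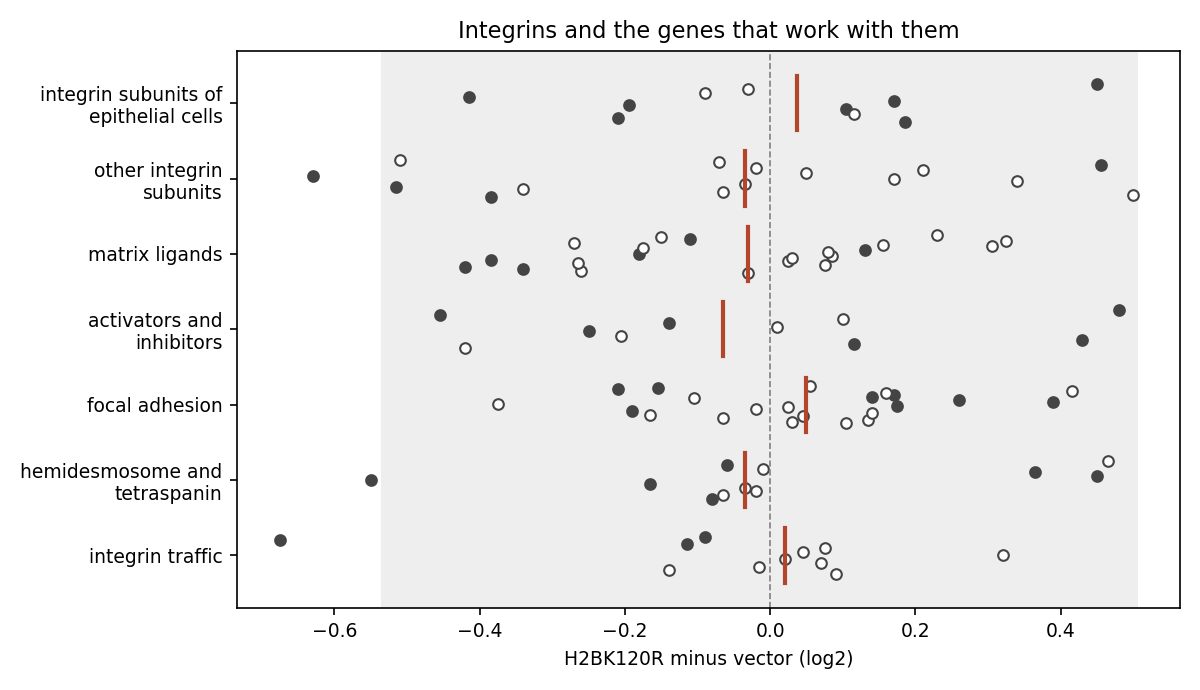
Difference between H2BK120R and vector (log2) for each measured gene of 7 lists, with filled points where the groups did not overlap, a red line at the list's median and grey from the 5th to the 95th percentile over all probe sets (-0.54 to 0.51). The medians lie between -0.07 and 0.05, and all 10 epithelial integrin subunits lie within the grey range.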

How the data were processed

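Total RNA of 4 samples was hybridised to an Affymetrix whole-transcript array after biotin labelling, per the labels' protocols. The authors deposited 1 log2 value per probe set and array, already normalized between arrays; that the base is 2 and that arrays were normalized are inferred from the values (lowest 1.56, highest 19.15, near-equal medians). The submitters' processing notes name MAS5 with no version; not given in the sources used here are its background correction, probe summary and genome build. Of 21448 probe sets, 17709 had 1 gene symbol in GEO's platform annotation, 0 had several and 3739 were unnamed here.

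The groups were compared in R 4.3.3 with limma 3.58.1, by lmFit and then eBayes with the variance trended on the mean level. The test was two-sided, had no covariate and 2 residual degrees of freedom, and p-values were adjusted over the whole table (Benjamini-Hochberg). The fit was tested on simulated data. Of each of the 6 lists of integrin-related genes the 3 genes with the smallest p were named, and further members (FN1, ITGA2B, ITGB8, COL4A2, TGFB1, TGFB3, LTBP1, FERMT2, PLEC, CD151, CD63) and the epithelial markers for their role, after values were seen. CD68 and COL1A2 were named for their level, also after values were seen. The members and lists were chosen with earlier results of these data known. Matplotlib 3.10.9 under Python 3.11.15 drew the figures.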

Additional observations from a re-analysis of the deposited data

How the results depend on the processing

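In the fit as designed, 1437 probe sets had an unadjusted limma p under 0.05. Under all 11 other settings tried, limma called 0 probe sets at an adjusted p of 0.05. The signs of 7 members held throughout. With 1 array left out, ITGA5 ranged from -0.05 to 0.28, ITGB4 from -0.31 to 0.13 and ITGB5 from -0.06 to 0, and of the other genes named RAB25 ranged from -0.30 to 0.94, TNS4 from -0.04 to 0.87 and TSPAN4 from -0.035 to 0.97. The members' median of 0.04 was -0.00031 after quantile normalization, 0.0225 with equal array medians and between -0.0225 and 0.0525 with 1 array left out. With 1 array left out, the count of members with separate groups was 7 to 10, where 62.7% to 73.4% of all probe sets are separate because 1 array faces 2. Over all probe sets the count at that p was 903 without the dimmest 50%, where fewer were tested, and 495 to 2427 with 1 array left out, the extremes being without H2BK120R replicate 2 and without vector replicate 2; the cause was not tested. With the replicate number as a block (replicate block) the count was 1846, 8.61% of all probe sets, no call at an adjusted p changed, and TSPAN4 and SNX31 came below an unadjusted limma p of 0.05, at 0.0465 and 0.0456. Same-numbered arrays deviated together with a correlation of 0.14 over probe sets, and with 2 pairs the numbers were not taken to pair the samples. In fits with 1 array left out, a group's lone array is taken to vary as the other group does. ITGB3 and ITGB6 are absent from the fit without the dimmest 50%. The planned pseudocount was not run, since the values are log2. The settings for genes and lists other than the members were added after seeing the data. The number of arrays limits what can be detected.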
